A study of Mus musculus with 24 samples.

Results

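The genes described here encode splicing factors of 7 name families: the SR proteins (Srsf), the heterogeneous nuclear ribonucleoproteins (Hnrnp), the SF3a and SF3b subunits of the U2 snRNP (Sf3a, Sf3b), and the muscleblind (Mbnl), CELF (Celf) and RBFOX (Rbfox) regulators. A gene was taken as a member when its symbol began with one of these names and the table listed it as protein-coding, with no use of its expression. This gave 52 of the 24537 genes in the table: 11 Srsf, 20 Hnrnp, 3 Sf3a, 6 Sf3b, 3 Mbnl, 6 Celf and 3 Rbfox genes. Levels came from RNA-seq of whole mouse muscle in 24 libraries, 2 for each of 12 groups. Both genotypes, Acta1-Cre+/4Fhet (Cre+) and Acta1-Cre-/4Fhet (Cre-), carried the polycistronic cassette of the reprogramming factors Oct4, Sox2, Klf4 and c-Myc (OSKM) and an rtTA transactivator blocked by a LoxP-STOP-LoxP cassette. Cre, driven by the skeletal actin gene Acta1, removed this stop in myofibers of Cre+ mice, so that doxycycline (Dox) could induce OSKM there. All mice, controls included, were 2 months old, ate regular chow and drank water with 1 mg/ml Dox, and were sampled at 3 times, on day 2.5, 5.5 or 8.5. The extensor digitorum longus (EDL), a fast-twitch muscle, and the soleus (SOL), a slow-twitch muscle, were taken.

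Pre-mRNA splicing removes introns in the spliceosome, where the SF3a and SF3b proteins hold the U2 snRNP at the branch point. SR proteins mostly bind exonic enhancers and favour exon inclusion, whereas many hnRNP proteins act from silencers and oppose it. MBNL, CELF and RBFOX proteins set tissue-specific exon choices. In muscle, MBNL proteins promote the adult pattern of exons and CELF1 favours the fetal one, and sequestration of MBNL proteins by expanded repeats underlies myotonic dystrophy. RBFOX proteins bind the motif UGCAUG beside exons of many contractile and calcium-handling genes, and CELF3, CELF4, CELF5 and CELF6 are known mainly from neurons.

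Promoter sequences were taken for the members from RefSeq (GRCm38.p6), as the 250 bases before the annotated start of a gene, and 46 of the 52 members had one. For each member the window nearest to the gene start used for counting was kept. Of these, 43 lay within 100 bases of that start, and the window of Rbfox3 lay 148531 bases away. The shares over all windows below count every window of 27025 genes, whereas each member counts once. Windows are shown for 3 genes, picked by their change in Cre+ against Cre- EDL at 2.5 days. Celf5 was the member with the largest rise and Hnrnpa1 the most abundant member that rose. Hnrnpd was a member that fell and has a MYC-type E-box. Capitals mark one of 4 searched motifs, read on both strands.
Celf5, chr10:81482700-81482949, minus strand: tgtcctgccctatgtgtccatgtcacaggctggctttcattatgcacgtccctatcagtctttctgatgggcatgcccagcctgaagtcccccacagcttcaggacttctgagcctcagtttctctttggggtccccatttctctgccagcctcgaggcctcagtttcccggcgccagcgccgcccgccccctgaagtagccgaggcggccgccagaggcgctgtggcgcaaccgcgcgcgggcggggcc
Hnrnpa1, chr15:103240147-103240396, plus strand: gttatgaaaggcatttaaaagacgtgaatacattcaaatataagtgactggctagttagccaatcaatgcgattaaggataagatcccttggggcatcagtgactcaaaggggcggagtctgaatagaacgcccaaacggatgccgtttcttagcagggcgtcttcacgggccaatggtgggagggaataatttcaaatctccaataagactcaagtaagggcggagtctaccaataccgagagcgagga
Hnrnpd, chr5:99978939-99979188, minus strand: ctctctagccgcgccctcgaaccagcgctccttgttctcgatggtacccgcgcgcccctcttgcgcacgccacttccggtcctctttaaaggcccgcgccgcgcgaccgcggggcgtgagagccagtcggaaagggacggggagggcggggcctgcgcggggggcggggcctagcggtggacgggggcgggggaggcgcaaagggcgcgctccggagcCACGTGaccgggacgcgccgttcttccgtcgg
The E-box CACGTG was found in 2 of the 46 member promoters (4.35%), those of Hnrnpd and Hnrnpa3, and in 6.02% of all 32851 promoter windows of that length. In Hnrnpd it lay 32 bases before the start. The octamer ATGCAAAT of POU factors such as Oct4 was in none of the 46, against 1.6% of all windows. The SOX core ATTGTT was likewise in none, against 9.42% of all windows. The KLF core GGGTGTGG was in 3 of 46 (6.52%; Celf3, Mbnl3 and Sf3b6), against 3.2% of all windows. The member promoters were richer in G and C, with a median of 64% and a range of 45.6 to 82.8% against a median of 52.4% over all windows. They held a median of 21 CpG dinucleotides, against 6 over all windows. These matches describe letters in a window and say nothing about binding.

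Each library held 36088781 to 54679082 counts, and a count of 3 stood for 0.0549 to 0.0831 CPM, the counts scaled to a common library total. Pou5f1, the Oct4 gene of the cassette, was at 15.3 and 58.5 FPKM in the Cre+ EDL libraries of 2.5 days, at 1.07 and 29.4 at 5.5 days and at 66.4 and 53.7 at 8.5 days. In Cre+ SOL it was at 4.54 and 8.63, 0.0812 and 0.4, and 11.4 and 6.09 FPKM at the same times, and in Cre- libraries at no more than 0.0941. Cre+ EDL replicate 2 of 2.5 days stood apart from replicate 1 in Pou5f1 and in several members, and the 5.5-day libraries, with little Pou5f1 in 3 of their 4 Cre+ libraries, are described separately. The summed level of 12 myofiber marker genes was lower in Cre+ EDL than in Cre- EDL, at 69060 to 100400 against 151000 to 173200 scaled CPM at 2.5 days and 93980 to 103700 against 137800 to 170200 at 8.5 days. Of these 12 genes, 6 fell and 0 rose at 2.5 days, and 3 fell and 1 rose at 8.5 days, while the others were not called. Of 6 endothelial markers 4 fell in Cre+ EDL at 2.5 days, with a sum of 237 to 261 against 338 to 410 scaled CPM. Among 6 satellite cell markers 1 rose in Cre+ EDL at 2.5 days and 1 at 8.5 days, and the others were not called. Their sum was 99.6 to 109 in Cre+ against 66.7 to 72.6 scaled CPM in Cre- EDL at 2.5 days. At 8.5 days it was 108.1 to 112.5 against 68.3 to 78.4. Of 6 liver markers 4 fell at 8.5 days, with a sum of 1.06 to 1.31 in Cre+ and 9.47 to 11.9 in Cre- EDL, where all other EDL groups were at 0.58 to 2.02. In SOL of 8.5 days all 6 liver markers fell, with a sum of 1.27 to 1.8 in Cre+ and 28 to 145.9 in Cre-. The liver transcripts were thus high in the Cre- libraries of both muscles at that time. The part of these markers in the changes below was not tested. In whole muscle, fewer cells of a type and less RNA per cell cannot be told apart. All libraries of 2.5 days carried Y-linked transcripts and all those of 5.5 and 8.5 days carried Xist, so time and sex cannot be told apart, whereas Cre+ and Cre- mice of 1 day had the same pattern.

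The members together took 0.362 to 0.497% of the counts of a library. Levels are given as FPKM, the CPM per kilobase of exon, with libraries scaled by the trimmed mean of M values. Averaged over the 24 libraries, Hnrnpa2b1 was highest at 128 FPKM. It was followed by Srsf5 at 76.5, Hnrnpa1 at 63.9, Hnrnpk at 62.4 and Srsf2 at 54.4 FPKM. Among the tissue-specific regulators, Mbnl1 was at 41, Rbfox1 at 37.5, Mbnl2 at 36, Rbfox2 at 29.3, Celf1 at 12.4 and Celf2 at 4.75 FPKM. By family, the Hnrnp genes summed to 637 to 811 FPKM in a library, the Srsf genes to 199 to 298, the Sf3b genes to 116 to 163 and the Sf3a genes to 26.5 to 41.5. At the low end stood Celf4 at 0.0703, Mbnl3 at 0.0487 and Celf3 at 0.0465 FPKM. Celf6 with 0 to 3 counts, Srsf12 with 0 to 2 and Rbfox3, the neuronal NeuN gene, with 0 to 24 counts were too low to be tested, which left 49 members.

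The response to OSKM at 2.5 days in EDL was mixed in direction. Of the 49 tested members, 4 were upregulated and 5 downregulated in Cre+ EDL by edgeR's quasi-likelihood test, where a call needed a Benjamini-Hochberg adjusted p below 0.05 together with a log2 fold change above 0.5 in size. These 9 members were 18.4% of those tested, against 24% of all 15372 genes called by the same rule. The upregulated members were Celf5, Hnrnpa1, Hnrnpab and Hnrnpf, and the downregulated ones were Hnrnph1, Srsf5, Rbfox2, Hnrnpd and Hnrnpdl. The median absolute log2 fold change was 0.25 over the members and 0.39 over all genes. These medians do not match the members to other genes by level, so they do not show a weaker response.

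**Figure D1:**
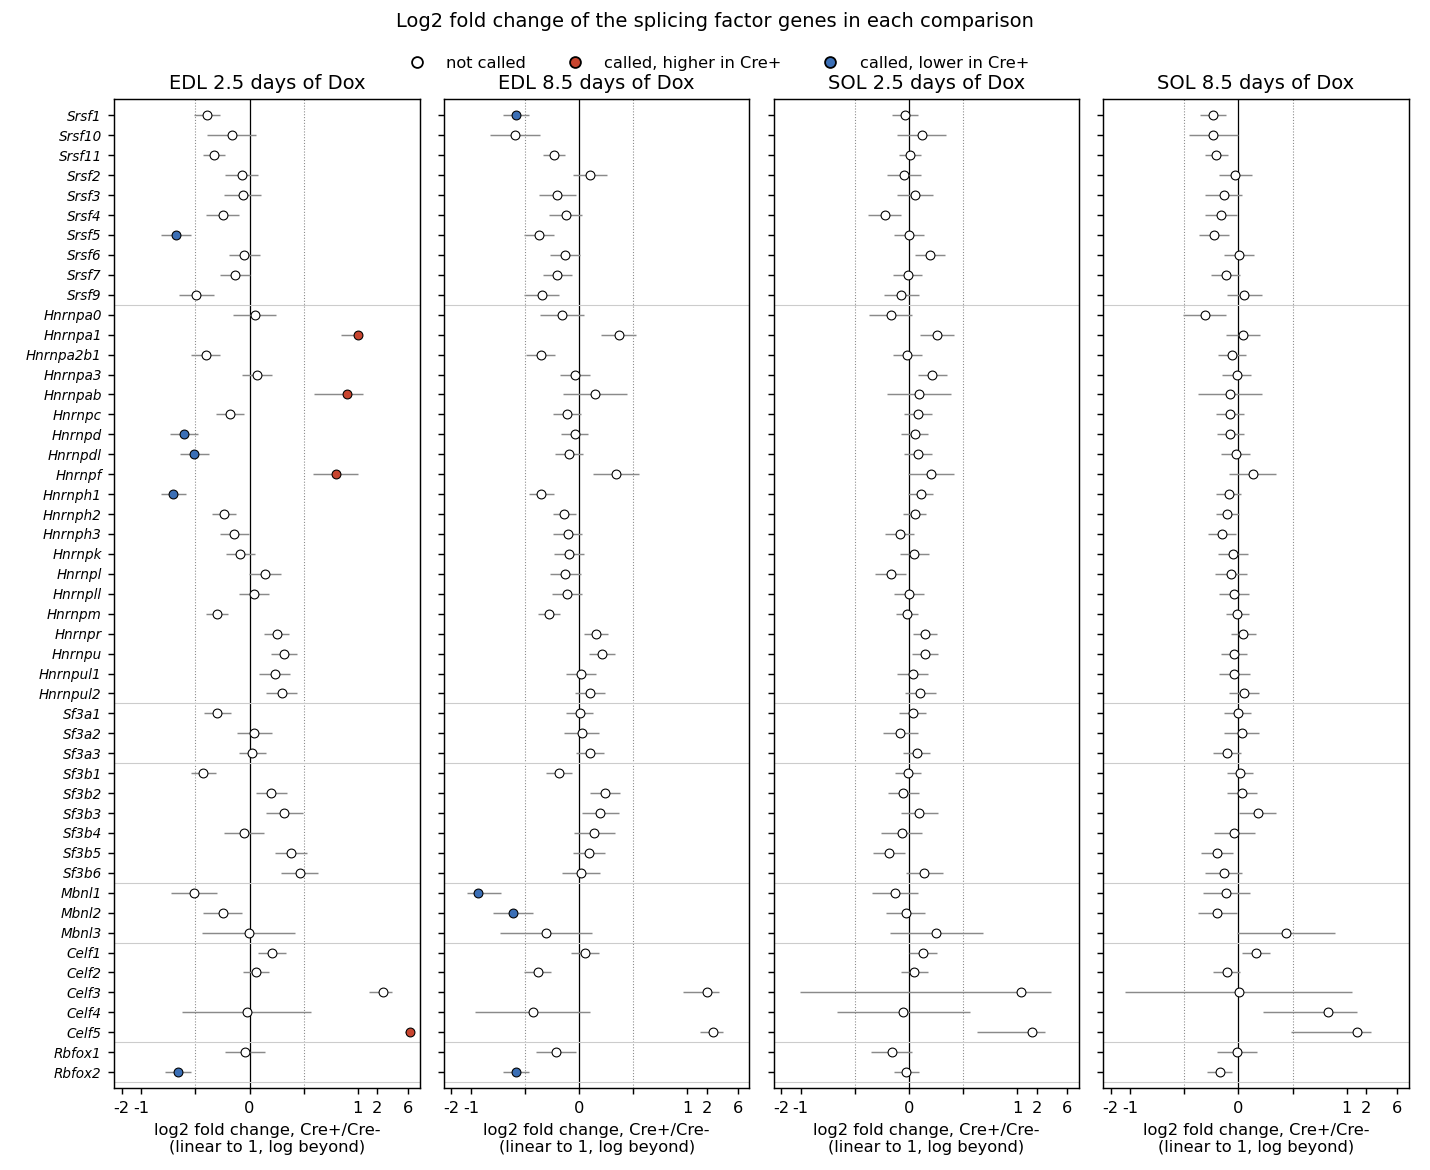
Log2 fold change of Cre+ against Cre- muscles for each tested member, grouped by family, in EDL and SOL at 2.5 and 8.5 days, with bars for the standard error from edgeR and dotted lines at a log2 fold change of 0.5 in either direction. The axis is linear to 1 and logarithmic beyond, where Celf5 lies at 6.30 in EDL at 2.5 days; filled points, the called members, lie on both sides of 0 in EDL at 2.5 days and below 0 at 8.5 days, and SOL has none.

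Celf5 (chr10:81459228-81482709, minus strand, mm10), a CELF protein best known from brain, showed the largest difference. It had 23 and 13 counts in the Cre- EDL libraries (0.124 and 0.0707 FPKM) and 778 and 2896 in the Cre+ libraries (3.24 and 12.4 FPKM). Both Cre+ libraries were far above both controls, and replicate 2 was well above replicate 1, as it was for Pou5f1. The log2 fold change was 6.30 ± 0.98 (SE), with an adjusted p of 0.000592 from edgeR, and it was 5.05 without Cre+ replicate 2 (adjusted p = 0.00451). At 8.5 days the Cre+ EDL libraries had 244 and 28 counts against 17 and 13, a log2 fold change of 2.53 ± 0.96 that did not pass (adjusted p = 0.0938). It passed without Cre+ replicate 2 (3.32, adjusted p = 0.0259). Pou5f1 was at 66.4 and 53.7 FPKM in the same libraries, while Celf5 was at 0.916 and 0.126 FPKM. At 5.5 days the Cre+ EDL libraries had 22 and 9 counts of Celf5 against 25 and 11, with Pou5f1 at 29.4 FPKM in the second. In SOL the Cre+ counts of Celf5 were 50 and 41 against 13 and 10 at 2.5 days and 113 and 23 against 23 and 14 at 8.5 days, with log2 fold changes of 1.68 and 1.44 that did not pass (adjusted p = 0.526 and 0.919). In both muscles of 8.5 days the Cre+ library numbered 1 was the higher. Its relative Celf3, named after its counts were seen, had 60 and 18 counts in Cre+ EDL at 2.5 days against 8 and 3, a log2 fold change of 2.43 (adjusted p = 0.0792). The summed level of 6 neuronal markers was 10.7 to 28 scaled CPM in Cre+ EDL at 2.5 days and 6.07 to 6.69 in Cre-, and its part in the rise of Celf5 was not tested. Only 2 of these 6 markers had enough counts to be tested, of which 1 was called, as a rise, and 1 was not. Of the other CELF genes, Celf1 and Celf2 had log2 fold changes of 0.21 and 0.06 that did not pass.

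Of the 20 Hnrnp genes, 3 rose and 3 fell at 2.5 days in EDL. Hnrnpa1 (chr15:103240397-103244962, plus strand), which represses exons and also acts in RNA export, was at 57 and 52.2 FPKM in Cre- EDL and at 86.2 and 134 FPKM in Cre+ EDL. Both Cre+ libraries were higher, for a log2 fold change of 1.00 ± 0.16 (adjusted p = 0.000671, edgeR) that was 0.66 without Cre+ replicate 2 (adjusted p = 0.00364). At 8.5 days its levels were 65.4 and 67 against 51.3 and 53.1 FPKM, with a log2 fold change of 0.36 that did not pass (adjusted p = 0.143, edgeR). Counting used uniquely aligned reads, so reads shared with near-identical copies of Hnrnpa1 were left out and its value is uncertain to that extent. Hnrnpa1 also overlaps Gm5643 and Gm10052 on the same strand, and reads of these genes may not be told apart from its own. Hnrnpab (chr11:51600100-51606881, minus strand), whose gene overlaps Phykpl on the other strand, was at 42.1 and 49.9 FPKM in Cre- and at 52.1 and 120 FPKM in Cre+ EDL. Hnrnpf (chr6:117906782-117925622, plus strand), a binder of G-rich elements, was at 6.71 and 6.68 in Cre- and at 8.45 and 15 FPKM in Cre+ EDL. In both genes replicate 2 of Cre+ was far above the other 3 libraries. Their log2 fold changes of 0.90 and 0.80 (adjusted p = 0.0411 and 0.015) rested on it and were 0.18 and 0.34 without it (adjusted p = 0.679 and 0.242). They also failed without either Cre- library, with adjusted p of 0.198 and 0.1 for Hnrnpab and 0.0744 and 0.0779 for Hnrnpf.

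The most abundant member, Hnrnpa2b1, passed on p but not on size, at -0.41 (adjusted p = 0.0353).

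The 3 Hnrnp genes that fell were more even between replicates. Hnrnph1 (chr11:50377719-50386528, plus strand), a close relative of Hnrnpf, was at 53.1 and 48.5 FPKM in Cre- EDL and at 32 and 30.6 FPKM in Cre+ EDL. The groups lay well apart, for a log2 fold change of -0.71 ± 0.12 (adjusted p = 0.000818, edgeR). Hnrnpd, also known as AUF1 and a binder of AU-rich mRNA elements, was at 7.87 and 8.11 against 4.92 and 5.64 FPKM, a log2 fold change of -0.61 ± 0.13 (adjusted p = 0.00351). Its neighbour and paralog Hnrnpdl was at 38.3 and 36.6 against 24.1 and 28.8 FPKM. The log2 fold change of Hnrnpdl was -0.51 ± 0.13 (adjusted p = 0.0127), just past the fold limit. It lost its call without Cre- replicate 1 (-0.47, adjusted p = 0.0762) or Cre+ replicate 1 (-0.39, adjusted p = 0.0791). It also fell short of the fold limit with DESeq2 on the same libraries (-0.49), with DESeq2 on the 4 libraries (-0.48) and with the size factors of DESeq2 in edgeR (-0.49), and failed with edgeR on the 4 libraries (adjusted p = 0.0681). Hnrnpd and Hnrnpdl lie on the same strand of chromosome 5, at chr5:99955935-99978938 and chr5:100033579-100039222. At 8.5 days Hnrnpd was at 8.08 and 9.13 FPKM in Cre+ against 8.43 and 9.52 in Cre- EDL, and Hnrnpdl at 33.9 and 39.3 against 40.8 and 38.4, so both groups overlapped.

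**Figure D2:**
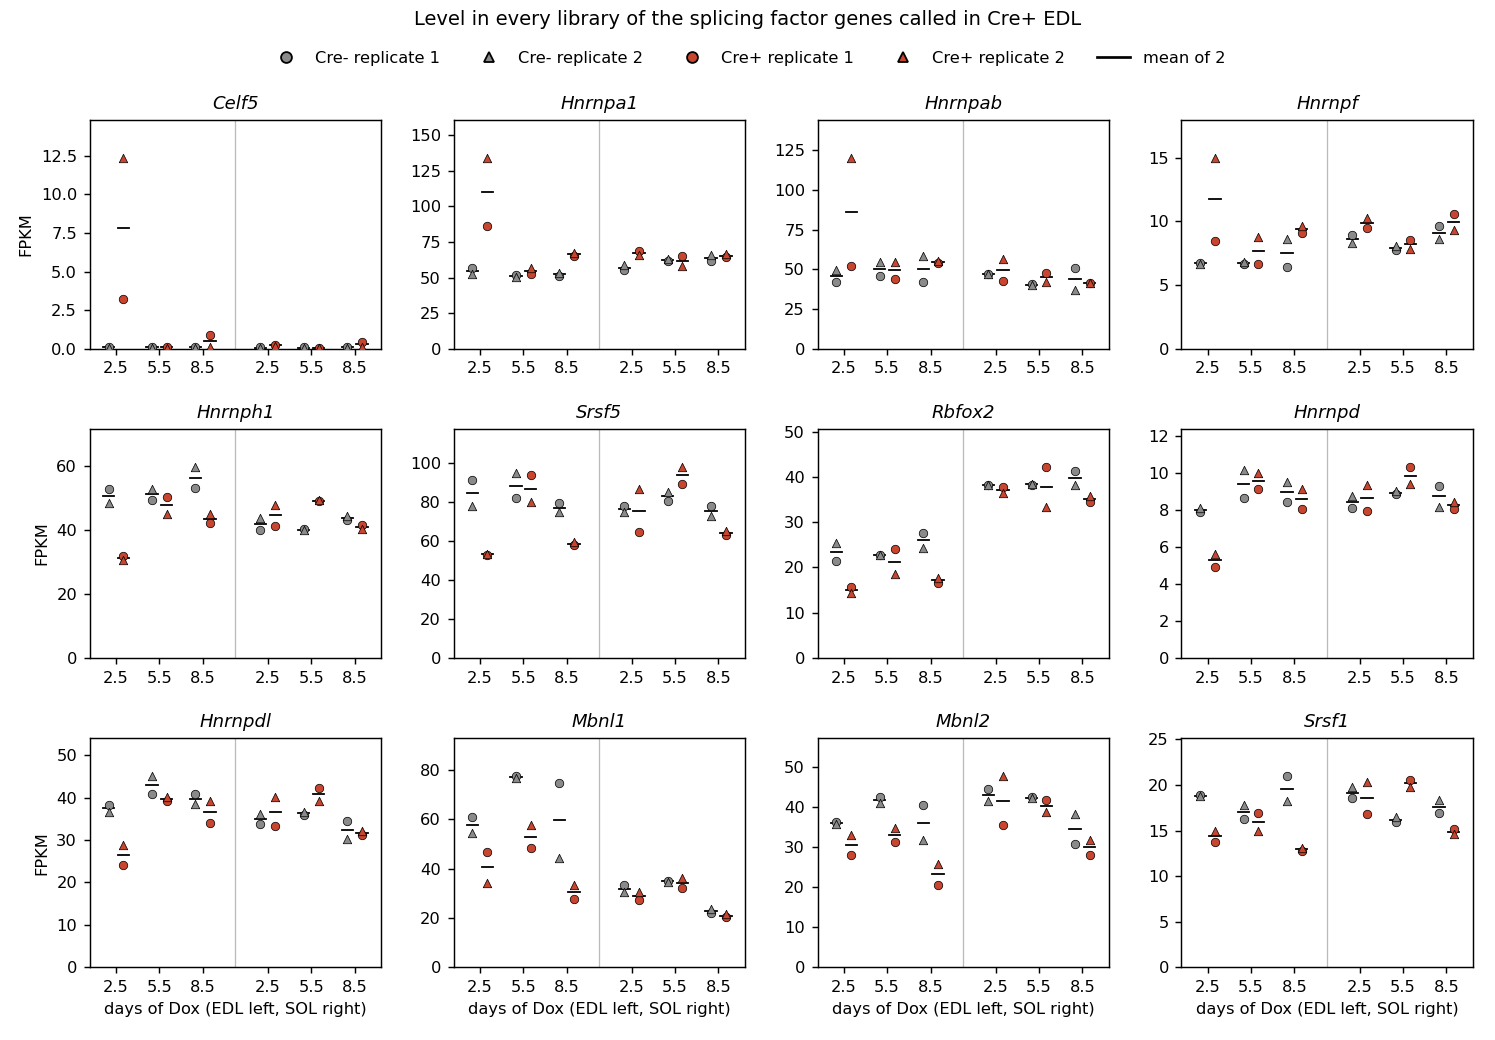
FPKM of the members called in EDL at 2.5 or 8.5 days in every library (Cre- grey, Cre+ red, EDL left and SOL right in each panel), with circles for replicate 1, triangles for replicate 2 and lines for the mean of 2. Celf5, Hnrnpa1, Hnrnpab and Hnrnpf reach their highest level in Cre+ EDL replicate 2 of 2.5 days, at 12.4, 134, 120 and 15 FPKM.

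Among the SR proteins, Srsf5 (chr12:80945499-80950506, plus strand) was at 91.1 and 77.9 FPKM in Cre- EDL and at 52.7 and 53.6 FPKM in Cre+ EDL at 2.5 days. The Cre+ libraries were close to each other and below both controls, for a log2 fold change of -0.68 ± 0.14 (adjusted p = 0.00299, edgeR). Srsf5 was the only call among the 10 tested Srsf genes, whose median log2 fold change was -0.21, and none of the 10 had a value above 0, whereas 7 of them did with library size alone. Srsf1, Srsf9 and Srsf11 passed the test on p but not on size, at -0.40, -0.49 and -0.33. Rbfox2 (chr15:77078990-77153812, minus strand), which overlaps 1700109K24Rik on the other strand, was at 21.4 and 25.5 FPKM in Cre- and at 15.6 and 14.3 FPKM in Cre+ EDL, with a log2 fold change of -0.66 ± 0.12 (adjusted p = 0.00149). Its paralog Rbfox1 was at 51.9 and 52.6 against 63.8 and 37.9 FPKM, so that the Cre+ libraries lay on both sides of the controls. None of the 3 Sf3a genes passed, with log2 fold changes from -0.30 to 0.04. None of the 6 Sf3b genes passed either, with values from -0.43 for Sf3b1, the branch-point subunit mutated in myelodysplasia, to 0.46 for Sf3b6. The most abundant of these subunits, Sf3b2, was at 0.20 (adjusted p = 0.309). Mbnl2 and the scarce Mbnl3, at -0.25 and -0.01, did not pass, and both were above 0 with library size alone, at 0.08 and 0.32.

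The balance of rises and falls at 2.5 days depended on how the libraries were scaled. With library size alone, 14 members rose and none fell, and 4 of them (Celf5, Hnrnpa1, Hnrnpab and Hnrnpf) were shared with the calls above. That scaling moved the median of all genes to 0.28 on the log2 scale and the median of the members to 0.28. All 5 members that had fallen stayed below 0, between -0.38 for Hnrnph1 and -0.18 for Hnrnpdl. Relative to the median of all genes, Hnrnph1 was at -0.66 with either scaling, Rbfox2 at -0.61, Srsf5 at -0.63 and Hnrnpa1 at 1.05 or 1.06. A change of scaling moves all genes of a comparison by about the same amount. The agreement of these values was therefore fixed in advance and is no check of the changes.

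**Figure D3:**
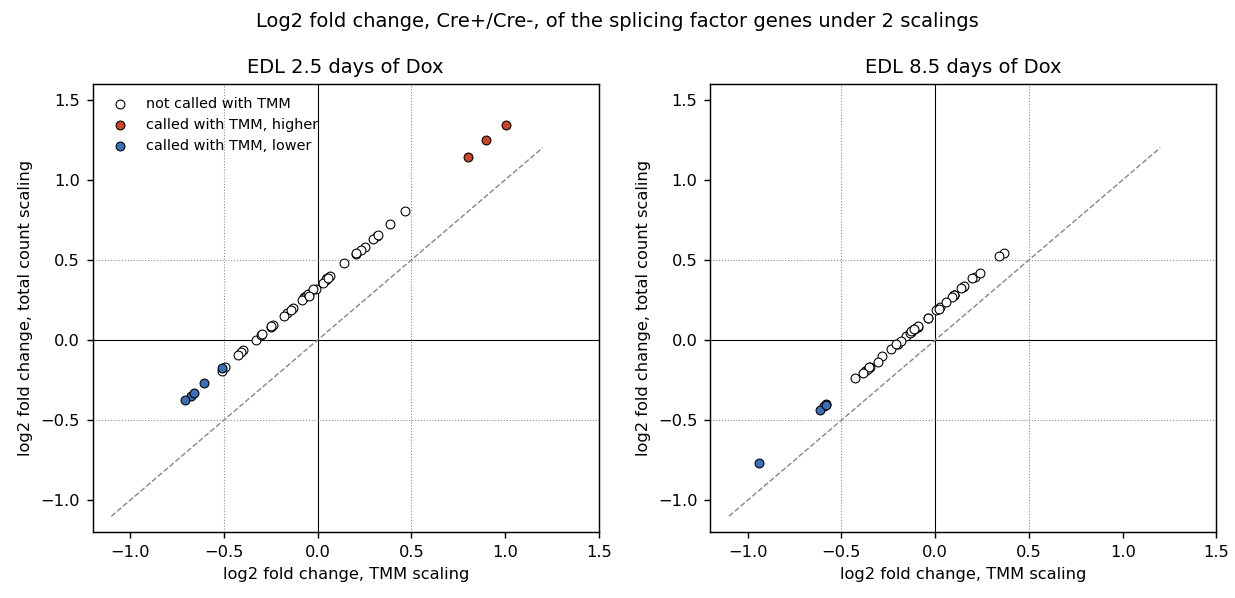
Log2 fold change of each tested member in EDL at 2.5 days (left) and 8.5 days (right) with scaling by the trimmed mean of M values (TMM, x axis) and with library size alone (y axis), coloured by its call under TMM, with a dashed line where both are equal; Celf3 and Celf5 are left out for their size. The points lie along a line above the dashed one, as the median of all genes moved to 0.28 at 2.5 days and to 0.16 at 8.5 days.

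At 8.5 days in EDL, 4 members were downregulated and none was upregulated, 8.16% of the 49 tested against 14.1% of all genes tested. Mbnl1 (chr3:60501179-60629750, plus strand), the main muscleblind gene of adult muscle, was at 74.6 and 44.5 FPKM in Cre- EDL and at 27.8 and 33.5 FPKM in Cre+ EDL. Mbnl2 (chr14:120275669-120431698, plus strand) was at 40.4 and 31.7 against 20.6 and 25.9 FPKM. In both genes the controls differed from each other by more than the Cre+ libraries did, and both Cre+ libraries were the lower. The log2 fold changes were -0.94 ± 0.22 for Mbnl1 and -0.61 ± 0.18 for Mbnl2 (adjusted p = 0.0119 and 0.0378, edgeR). Srsf1 (chr11:88047373-88053757, plus strand), the founding SR protein and a splicing activator, was at 20.9 and 18.2 against 12.8 and 13.1 FPKM. Rbfox2 was at 27.7 and 24.4 against 16.6 and 17.6 FPKM. The groups did not overlap in either gene, and the log2 fold changes were -0.58 ± 0.12 in both (adjusted p = 0.0064 and 0.00609).

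These 4 calls were sensitive to single libraries and to scaling. Without Cre- replicate 1 no member passed, and the log2 fold changes were -0.51 for Mbnl1, -0.42 for Mbnl2, -0.47 for Srsf1 and -0.48 for Rbfox2 (adjusted p = 0.132, 0.25, 0.0525 and 0.0477, edgeR). Without Cre+ replicate 1 none passed either, with -0.80, -0.45, -0.56 and -0.54 (adjusted p = 0.131, 0.291, 0.0687 and 0.0718). Without Cre- replicate 2 and without Cre+ replicate 2, 6 and 5 members were called. With library size alone, which moved the median of all genes to 0.16 here, only Mbnl1 was called, at -0.77 (adjusted p = 0.0259), and the other 3 lay between -0.44 and -0.40. Rbfox2 was called at both 2.5 and 8.5 days. Hnrnph1 and Srsf5, which had fallen at 2.5 days, were at 42.2 and 45 against 53.2 and 59.8 FPKM and at 58 and 59.5 against 79.7 and 74.7 FPKM at 8.5 days. Neither overlapped with its controls, but for 2 libraries against 2 a permutation test of such a separation gives no less than p = 0.3333. Neither passed, at -0.35 and -0.37 (adjusted p = 0.0579 and 0.085, edgeR). Mbnl1 at 2.5 days was at 46.8 and 34.1 against 60.7 and 54.3 FPKM, a log2 fold change of -0.51 that did not pass (adjusted p = 0.0981) but did without Cre+ replicate 1 (-0.77, adjusted p = 0.0409). The change at 8.5 days was set against that at 2.5 days in EDL, comparisons with separate controls. No member passed this test and 0% of all genes did, with 6 members at an unadjusted p under 0.05, among them Hnrnpd at 0.57, Hnrnpa1 at -0.64 and Celf5 at -3.78 on the log2 scale.

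In SOL no member was called at 2.5 or 8.5 days, where 0.384 and 0.631% of all genes were. None had an unadjusted p under 0.05 with edgeR or with DESeq2 on the same libraries, and the lowest adjusted p of edgeR was 0.518 at 2.5 days and 0.814 at 8.5 days. The median absolute log2 fold change of the members was 0.08 at both times, against 0.21 and 0.15 over all genes, again without matching by level. Hnrnph1 was at 41.4 and 48 FPKM in Cre+ SOL and at 40 and 43.9 in Cre- SOL at 2.5 days, which overlapped.

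At 5.5 days no member was called in either muscle, against 0.304% of all genes in EDL and 0% in SOL. At an unadjusted p under 0.05 edgeR gave 3 members in EDL, namely Mbnl1, Mbnl2 and Rbfox1, and 4 in SOL, and DESeq2 on the same libraries gave 3 and 5. Mbnl1 was at 48.2 and 57.7 FPKM in Cre+ EDL and at 77.4 and 76.7 in Cre- EDL. Mbnl2 was at 31.3 and 34.7 against 42.5 and 41.1 FPKM. Both genes lay below their controls in each Cre+ library, with log2 fold changes of -0.54 and -0.34 that did not pass (adjusted p = 0.36 and 0.575, edgeR). With DESeq2 on these 4 libraries alone Mbnl1 was called. Hnrnpa1 was at 52.5 and 56.5 against 51.5 and 50.4 FPKM.

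The change in EDL was compared with that in SOL by an interaction term. At 2.5 days Hnrnph1 was the only member called, against 4.25% of all genes, with a difference of -0.81 ± 0.16 between a log2 fold change of -0.71 in EDL and 0.11 in SOL (adjusted p = 0.0175, edgeR). The call ended without Cre- EDL replicate 1 (adjusted p = 0.0835), Cre- EDL replicate 2 (0.052), Cre+ EDL replicate 2 (0.0744), Cre- SOL replicate 1 (0.0884) or Cre+ SOL replicate 2 (0.0937). It also ended with library size alone (-0.64, adjusted p = 0.0507). Libraries of EDL and SOL that shared a number deviated together, and with the mouse as a replicate block 4 members passed. These were Hnrnph1 at -0.81 (adjusted p = 0.0311), Celf5 at 4.35 (0.0149), Hnrnpd at -0.66 (0.0494) and Rbfox2 at -0.63 (0.0487). Srsf5 at -0.68 and Hnrnpa1 at 0.75 did not pass without the block (adjusted p = 0.0675 and 0.0785). At 8.5 days no member passed, against 0.592% of all genes, and 2 had an unadjusted p under 0.05, Mbnl1 at -0.82 and Rbfox2 at -0.41.

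Ratios of paralogs within a library do not depend on how libraries are scaled and are given as a description. In EDL at 2.5 days Hnrnpf had risen and Hnrnph1 fallen, and Hnrnpa1 had risen while Hnrnpa2b1 was lower. The ratios of these pairs repeat those changes and add no test of them. Hnrnpa1 over Hnrnpa2b1, the A1 and A2/B1 proteins with related binding sites, was 0.367 to 0.414 in Cre- EDL of 2.5 days and 0.809 and 1.27 in Cre+ EDL. At 8.5 days it was 0.332 to 0.357 in Cre- and 0.541 to 0.596 in Cre+ EDL, so Cre+ lay above Cre- at both times. In SOL it was 0.52 to 0.574 in Cre+ against 0.417 to 0.498 in Cre- at 2.5 days and 0.569 to 0.608 against 0.529 to 0.565 at 8.5 days, again with Cre+ above Cre-. At 5.5 days Cre+ was above Cre- in EDL (0.388 to 0.407 against 0.306 to 0.361) and below it in SOL (0.453 to 0.501 against 0.522 to 0.524). Hnrnpf over Hnrnph1 was 0.126 and 0.138 in Cre- EDL against 0.264 and 0.491 in Cre+ EDL at 2.5 days. At 8.5 days it was 0.121 and 0.144 against 0.215 in each Cre+ library. The Cre+ replicates of 8.5 days were close to each other in this ratio. Neither gene had been called there, and the ratio was not tested. In SOL the ratio of Hnrnpf to Hnrnph1 was 0.213 to 0.229 in Cre+ and 0.19 to 0.224 in Cre- libraries at 2.5 days, which overlapped, and 0.229 to 0.253 against 0.192 to 0.223 at 8.5 days, which did not. At 5.5 days it was 0.159 to 0.173 in Cre+ SOL, below the 0.193 to 0.202 of Cre- SOL.

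**Figure D4:**
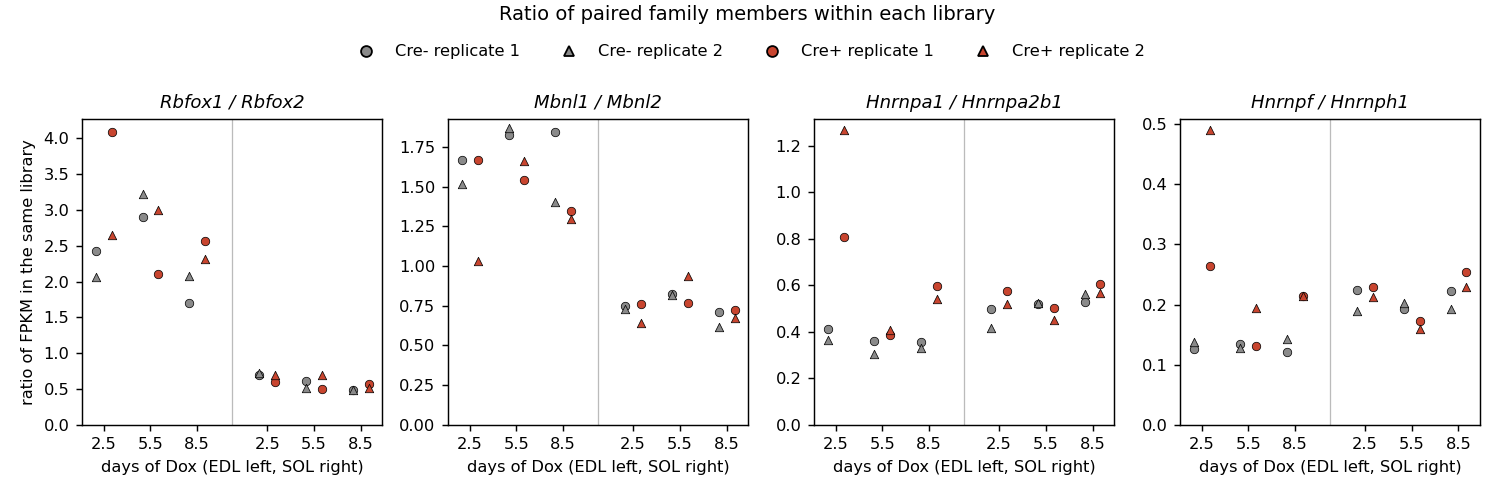
Ratio of FPKM within each library for 4 pairs of paralogs by muscle, day of Dox and genotype (Cre- grey, Cre+ red), with circles for replicate 1 and triangles for replicate 2. Hnrnpa1 over Hnrnpa2b1 and Hnrnpf over Hnrnph1 are higher in Cre+ than in Cre- EDL at 2.5 and 8.5 days, and Rbfox1 over Rbfox2 and Mbnl1 over Mbnl2 separate EDL from SOL.

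The Cre- muscles were then compared with each other. Between Cre- EDL and Cre- SOL of 2.5 and 8.5 days, 3 members were higher in EDL and 2 were lower, 5 of 49 against 21.9% of all genes. Rbfox1 (chr16:7069835-7412480, plus strand) was at 51.9, 52.6, 47.2 and 50.6 FPKM in EDL and at 26.8, 27.7, 19.9 and 18.8 FPKM in SOL. Mbnl1 ranged from 44.5 to 74.6 FPKM in EDL and from 21.8 to 33.3 in SOL. Celf2 (chr2:6539699-6872035, minus strand), a broadly expressed CELF protein, ranged from 5.31 to 6.71 FPKM in EDL and from 3.36 to 3.8 in SOL. All 4 EDL libraries were above all 4 SOL libraries in these genes, with log2 differences of 1.16 ± 0.13 for Rbfox1, 1.14 ± 0.15 for Mbnl1 and 0.72 ± 0.09 for Celf2 (adjusted p = 2.87e-05, 0.000115 and 4.62e-05, edgeR). Rbfox2 was the other way round, at 21.4 to 27.7 FPKM in EDL and 38.2 to 41.3 in SOL, a log2 difference of -0.64 ± 0.08 (adjusted p = 9.64e-05). Hnrnpa0 (chr13:58125879-58128556, minus strand), an intronless A/B-type hnRNP gene, was at 15.4 to 21.1 FPKM in EDL and 22.2 to 31.1 in SOL, with a log2 difference of -0.53 ± 0.14 (adjusted p = 0.013). These p-values come from a fit that does not pair the muscles of a mouse. With the mouse as a replicate block the same members were called, with adjusted p of edgeR from 0.000141 for Rbfox1 to 0.0123 for Hnrnpa0. The call of Hnrnpa0 was lost without EDL replicate 1 of 2.5 days (-0.45), EDL replicate 1 of 8.5 days (-0.42), SOL replicate 2 of 2.5 days (-0.49) or SOL replicate 1 of 8.5 days (-0.39).

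The Cre- libraries of 5.5 days, which did not enter that comparison, also gave 3 members higher and 2 lower in EDL, against 19.8% of all genes. Rbfox1 was at 65.8 and 73.7 FPKM in EDL and at 23.3 and 20.1 in SOL, a log2 difference of 1.69 ± 0.17 (adjusted p = 2.3e-06, edgeR). Mbnl1 and Celf2 were higher by 1.15 and 1.04 and Rbfox2 was lower by a log2 difference of -0.75 (adjusted p = 0.000318, 2.66e-05 and 0.000452). Hnrnph3 (chr10:63014664-63023849, minus strand), which overlaps Rufy2 on the other strand, was at 13.8 and 14.1 FPKM in EDL and 21.3 and 20.4 in SOL, a log2 difference of -0.58 (adjusted p = 0.00137). With the mouse as a replicate block the same members were called at 5.5 days, with adjusted p of edgeR from 3.1e-05 for Rbfox1 to 0.00557 for Hnrnph3. At 2.5 and 8.5 days Hnrnph3 passed on p but not on size, at -0.43 (adjusted p = 0.00371), and was called at -0.52 without EDL replicate 2 of 8.5 days. Over all 6 Cre- libraries of a muscle, Rbfox1 over Rbfox2 was 1.71 to 3.23 in EDL and 0.48 to 0.725 in SOL. Mbnl1 over Mbnl2 was 1.4 to 1.87 in EDL and 0.616 to 0.825 in SOL. Thus the more abundant paralog by FPKM was Rbfox1 and Mbnl1 in each Cre- EDL library and Rbfox2 and Mbnl2 in each Cre- SOL library. Markers of other cells also differed between the Cre- muscles. At 2.5 and 8.5 days 6 of 6 adipocyte and 4 of 6 satellite cell genes were lower in EDL, and 4 of 6 Schwann cell, 3 of 6 fibroblast and 3 of 5 erythroid genes were higher. At 5.5 days 1 of 6 adipocyte and 3 of 6 satellite cell genes were lower, and 5 of 6 Schwann cell, 0 of 6 fibroblast and 0 of 5 erythroid genes were higher. Their part in the differences of the members was not tested.

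**Figure D5:**
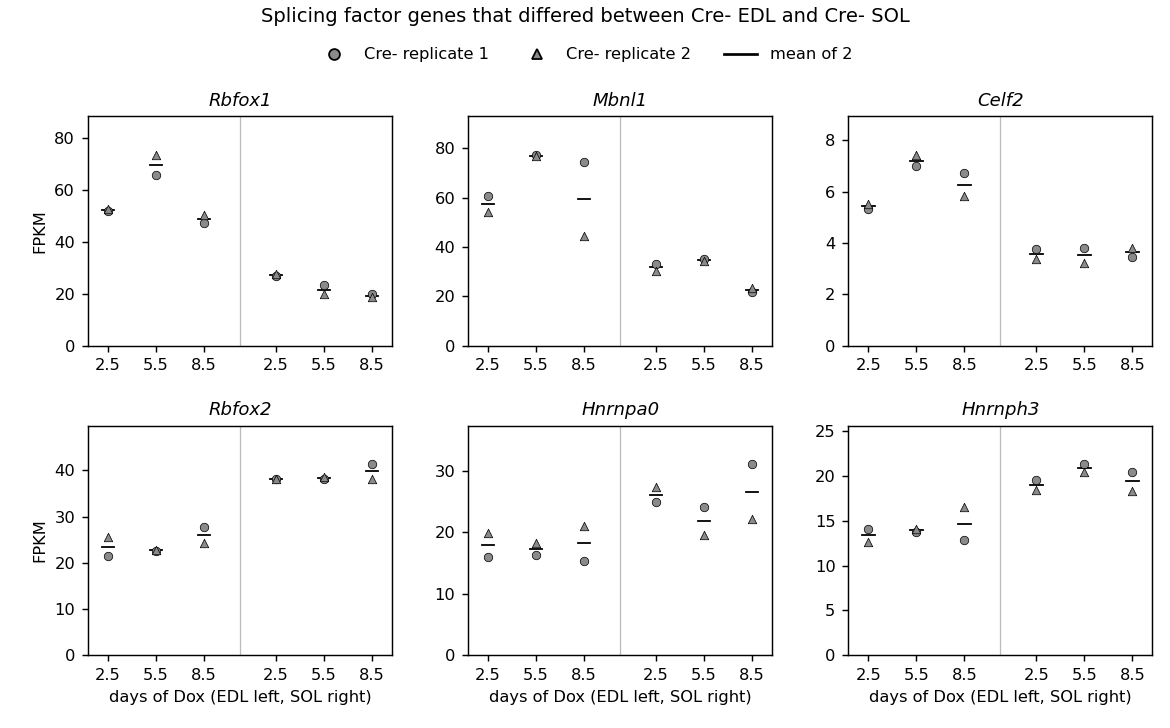
FPKM of Rbfox1, Mbnl1, Celf2, Rbfox2, Hnrnpa0 and Hnrnph3 in Cre- EDL (left) and Cre- SOL (right) libraries by day of Dox, with circles for replicate 1, triangles for replicate 2 and lines for the mean of 2. Rbfox1, Mbnl1 and Celf2 are higher in EDL and Rbfox2 is higher in SOL at all 3 times.

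Other genes of the splicing machinery, listed by role, were read beside the members. Of 105 tested of 107 listed, 3 rose and 10 fell in EDL at 2.5 days and 1 rose and 4 fell at 8.5 days, against the same 24 and 14.1% of all genes, and none passed in SOL. These lists were tested with TMM scaling only. The kinases that phosphorylate SR proteins gave 4 falls of 8 at 2.5 days, with a median log2 fold change of -0.50. These were Clk4 at -0.75, Srpk2 at -0.59, the muscle-specific Srpk3 at -0.56 and Dyrk1a at -0.54 (named after its value was seen), whereas Srpk1 was at 0.29 and did not pass. Clk4 fell again at 8.5 days, at -0.68. Of the 11 U1 and Sm core genes, Snrpd3 at -0.85 and Snrnp70 at -0.50 fell at 2.5 days and Snrpd3 at -0.78 at 8.5 days. None of the 12 genes of U2 and U2AF, among them the partners of the SF3 subunits, passed at either time. Of the 15 tri-snRNP genes, Eftud2 at 0.69 and Txnl4a at 0.70 rose at 2.5 days. Among other regulators, Tia1 fell at both times, at -0.68 and -0.93. Ptbp1, Rbm20, the titin splicing factor, and Rbm24 were at 0.10, -0.41 and -0.42 at 2.5 days and did not pass, and the epithelial Esrp1 and Esrp2 had at most 3 and 4 counts in a library. Between the Cre- muscles, Khdrbs3 at -2.29 and Raver2 at 2.21 had larger log2 differences than any called member and were named after these were seen (edgeR, adjusted p = 9.3e-08 and 1.17e-06).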

How the data were processed

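RNA was extracted from whole EDL and SOL muscles and sequenced as polyA-selected libraries. Per the labels and the file headers, the authors aligned reads to mm10 with STAR 2.5.3a and counted uniquely aligned reads in RefSeq exons with HOMER. The deposited values are raw counts per gene, with 1 table for all 24 libraries. The strand setting of the counting was not given in the sources used here, and the counts resolve no isoforms, so exon inclusion was not analysed here. Where genes overlap, on opposite strands or on the same strand, reads of the partners may not be told apart. Libraries were grouped by the labels.

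Genes were tested with edgeR 4.0.16 (quasi-likelihood, scaling by the trimmed mean of M values, filterByExpr with a minimum count of 10) over the 16 libraries of 2.5 and 8.5 days in 1 fit of 15372 genes. The 24 libraries were fitted together for 5.5 days (15478 genes) and kept out of the other fit, on the reading that the authors had removed them. The authors state that libraries without OSKM overexpression were removed, without naming them. Their paper describes RNA-seq after 2.5 or 8.5 days of Dox only, so the 5.5-day libraries are absent from it. P-values were adjusted over all genes by Benjamini-Hochberg, and a call needed an adjusted p below 0.05 together with a log2 fold change above 0.5 in size. FPKM was computed from the counts, exon lengths and scaled totals. The tests ran on simulated counts first. Alternatives were DESeq2 1.42.0, other scalings, filters and fold limits, replicate blocks and leaving out single libraries. With 2 libraries against 2 a permutation test of 1 gene cannot go below p = 0.3333, so tests rest on the spread shared across genes. Libraries of EDL and SOL that shared a number and genotype deviated together (r of 0.17 to 0.44 over 6 groups, across genes), which is taken as a shared mouse.

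Members and lists were chosen with earlier results of these data known. Named genes are up to 8 called members per direction in each EDL comparison of Cre+ with Cre- and up to 4 in the others, the most abundant member of each family, the muscle regulators of the Mbnl, Celf and Rbfox families, up to 2 called genes per direction of each other splicing list in EDL, and Ptbp1, Rbm20, Rbm24, Srpk3, Esrp1 and Esrp2.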

Additional observations from a re-analysis of the deposited data

Results flagged for a closer look

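Rbfox2 stood at 41.3 FPKM in 1 of the 4 Cre- SOL libraries of 2.5 and 8.5 days (8.5 days, replicate 1), while the other 3 were at 38.2, 38.2 and 38.2 FPKM. The gap to the nearest library exceeded the critical value of Dixon's test for 4 values, which a small share of such groups would exceed by chance. That test takes the 4 values as a single sample. These pooled 2.5 and 8.5 days, which also differed in sex-linked transcripts, so its chance level does not strictly hold. In all, 12 such groups of 4 were tested. The gap is small beside the difference from Cre- EDL, where Rbfox2 was at 21.4 to 27.7 FPKM. Hnrnph1 was called for a different change in the muscles at 2.5 days, with an interaction of -0.81 on the log2 scale between EDL and SOL (edgeR's quasi-likelihood test, adjusted p = 0.0175). It was the only member called, against 4.25% of all genes. As given above, the call ended when any of several single libraries was left out, and with library size alone.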

How the results depend on the processing

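With a log2 fold limit of 1 the calls among members were 2 in EDL at 2.5 days, 0 at 8.5 days, 0 for the interaction at 2.5 days, 2 between Cre- muscles of 2.5 and 8.5 days and 3 between those of 5.5 days, and with no fold limit they were 15 in EDL at 2.5 days and 14 and 11 between Cre- muscles. With library size alone 14 were called in EDL at 2.5 days, 1 at 8.5 days (Mbnl1) and 2 for the interaction. The interaction gave 6 with all 24 libraries in the fit, 3 with at least 10 counts in every library, 6 with DESeq2 on the same libraries and 4 with the mouse as a replicate block. DESeq2 on the 4 libraries gave 1 in EDL at 5.5 days, and edgeR on the 4 libraries gave 0 in EDL at 8.5 days. The causes were not tested.

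Leaving out single libraries gave 6 to 11 calls in EDL at 2.5 days, 0 to 6 at 8.5 days, 0 to 1 for the change between these times, 0 to 6 for the interaction at 2.5 days, and 4 to 6 and 5 to 6 between Cre- muscles of 2.5 and 8.5 days and of 5.5 days. No called value of a member turned its direction under any alternative run, whereas some values that had not passed did, among them Mbnl2 (0.08), Mbnl3 (0.32) and Rbfox1 (0.27) in EDL at 2.5 days with library size alone, and Rbfox1 without Cre+ replicate 2 (0.29).

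Cre+ and Cre- libraries shared only a number, with correlations of deviations from -0.17 to 0.06. With that number as a replicate block, 10 members were called in EDL at 2.5 days and 4 at 8.5 days. Crossing the numbers at 8.5 days in EDL, added after seeing the data, gave 5. With 2 libraries per group and a floor of 3 counts, changes of Celf3, Celf4 and Mbnl3 were limited by depth.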
